A study of Mus musculus with 8 samples.

Results

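Heat shock proteins and their J-domain co-chaperones were examined in the cardiac ventricles of tumor-bearing and control mice. Members were the protein-coding rows of the deposited count table whose gene symbol belongs to the Hspa, Hspb, Hsp90, Hspd, Hspe or Hsph series or to the Dnaja, Dnajb or Dnajc series. This gave 75 gene rows with 74 symbols, out of 43346 genes in the table. By textbook location 47 of them act in the cytosol, the nucleus or on endosomes, 13 in the endoplasmic reticulum (ER) and 9 in mitochondria, and 6 were left without a compartment. The name rule also takes in a few genes that are not chaperones themselves, such as Hspbp1, a nucleotide exchange factor for HSP70, and Hspb11 and Hspbap1.

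Gene expression had been measured by RNA sequencing in 8 male C57BL/6 mice. At 7 weeks of age 4 mice were injected with 1000000 LLC1 cells, a mouse lung carcinoma line, and 4 with the PBS vehicle. Ventricular tissue was taken 14 days later. The labels give no genetic change for either group. The methods describe echocardiography of injected mice under isoflurane 14 days after the injection. They do not say whether the sequenced mice had it, or received the labelled phenylalanine used to measure protein synthesis. The tumor group rests on a single cell line in male mice. Mice are referred to by group and label code, LLC1 1-2, 1-3, 1-5 and 2-2 and PBS 1-1, 1-3, 2-1 and 2-5. Nothing in the labels says what the numbers of the code stand for.

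HSP70 proteins bind exposed hydrophobic stretches of client proteins in a cycle driven by ATP. J-domain proteins bring clients to HSP70 and trigger ATP hydrolysis, and exchange factors such as the HSP110 protein Hsph1 release the client. Hsp90 takes over clients that are close to their final fold, small heat shock proteins hold unfolding proteins in a soluble state, and the chaperonin made of Hspd1 and Hspe1 encloses proteins imported into mitochondria. Cytosolic members such as Hspa1a are switched on by heat shock factor 1 when unfolded proteins build up in the cytosol, and ER members such as Hspa5 by the unfolded protein response. In heart muscle several small heat shock proteins are bound to the contractile apparatus.

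Library totals ran from 12480706 to 19747596 counts, so that 1 CPM (a count scaled to the library size) stood for 11.7 to 19.9 counts. CPM values were scaled with TMM factors, and RPKM is the CPM divided by the gene length in kilobases given in the table. The mouse PBS 1-1 stood apart from the other control mice. Its counts differed from those of the other PBS mice with a chi-square per degree of freedom of 57.9 to 86.1, against 4.52 to 15.9 for the other pairs of mice within a group. It held the highest level of the 8 mice for 32 of the 66 members that passed the filter on low counts, and for many of the members described their values without it are also given. At the other end of the control group, PBS 2-5 held the lowest level for 24 of the 66, and without it 6 of the tested members were called lower in place of 1, where the share of all genes called lower was 5.10% in place of 4.61%. Cardiomyocyte markers summed to 92519 to 99292 CPM in LLC1 mice and 83632 to 86414 CPM in PBS mice with 1 of 7 genes called higher, and 0 of the 7 were at 0. Most of the sum was the called gene Myh6, with means of 54332.5 CPM in LLC1 mice and 45868.7 CPM in PBS mice. Log2 fold changes were positive for 5 of the 7 and negative for Actc1 (-0.05) and Ryr2 (-0.17). Endothelial markers summed to 605 to 672 CPM in LLC1 mice and 700.0 to 895 CPM in PBS mice with 2 of 5 called lower, fibroblast markers to 693 to 770.2 and 726 to 921 CPM with 2 of 5 called lower, and macrophage and leukocyte markers to 113 to 137 and 109 to 175 CPM with 1 of 5 called lower. Smooth muscle and erythroid markers had 0 of 3 and 0 of 5 called, with sums of 105 to 164 and 1428 to 5180 CPM in LLC1 mice and 151 to 202 and 1556 to 3097 CPM in PBS mice. Epithelial markers, which tumor cells of lung origin could carry, summed to 0.794 to 3.29 CPM in LLC1 mice and 0.858 to 2.66 CPM in PBS mice, and 2 of 5 passed the filter. Of these markers Sftpc was at 0 in every mouse and Epcam in every LLC1 mouse. The part of these cell type differences in the values of the chaperones was not tested. In whole tissue, fewer cells of a type and less RNA per cell cannot be told apart.

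The level per length in the control hearts was led by small heat shock proteins and by constitutive cytosolic chaperones. Hspb7, a small heat shock protein of heart and skeletal muscle that binds filamin, had the highest level of the members at 872 RPKM ± 58.2 (SD, n = 4). It was followed by the constitutive Hsp90ab1 with 465 RPKM ± 43.5, Hspb6 with 342 RPKM ± 10.8, the constitutive HSP70 Hspa8 with 335 RPKM ± 85.1 and Hspb8 with 271 RPKM ± 27.6. Cryab, a small heat shock protein outside the name rule, stood above all of them with 1221 RPKM ± 56.4. Hspb6 and Hspa8 did not differ beyond their spread, and neither did Hspa8 and Hspb8.

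The leading member of the ER was Hspa5 (BiP), the HSP70 of its lumen, with 208 RPKM ± 27.8, and Hsp90b1 (GRP94), the HSP90 of the same compartment, had 117 RPKM ± 18.1. In mitochondria Hspa9 (mortalin), the import motor and matrix HSP70, had 187 RPKM ± 16.0, Hspd1 had 148 RPKM ± 29.5 and Hspe1 58.1 RPKM ± 10.0. Among J-domain proteins the highest levels were those of Dnajc15, a co-chaperone of the mitochondrial import motor, with 102 RPKM, and the cytosolic Dnaja2 with 82.9 RPKM ± 4.83. The shorter of the 2 overlapping Dnajc19 rows had 82.5 RPKM on a gene model of only 333 bases. The stress-inducible Hspa1a and Hspa1b were low in control hearts, at 4.45 RPKM ± 5.51 and 4.72 RPKM ± 6.51, and their SD exceeded their mean.

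**Figure D1:**
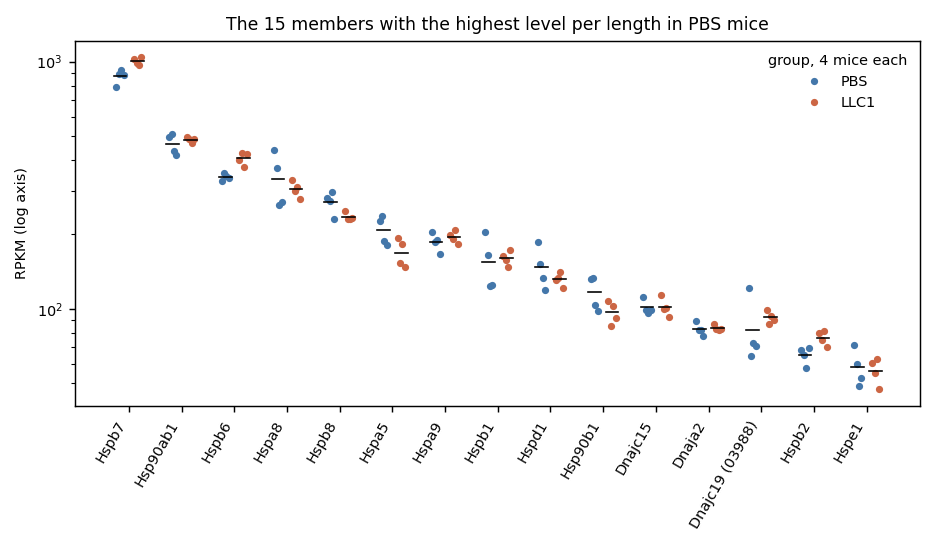
RPKM (log axis) of the 15 members with the highest mean level per length in PBS mice, with 1 point per mouse and a black line at each group mean, 4 PBS and 4 LLC1 mice. Hspb7 leads with a mean of 872 RPKM in PBS mice, and the LLC1 points lie above all PBS points for Hspb7, Hspb6 and Hspb2.

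Of the 75 rows 9 did not pass the filter on low counts and were not tested. Dnajb8 and Dnajc5b had 0 counts in every mouse, which allows up to 0.257 CPM in the shallowest library, counting 3 counts as the limit. Dnajb3, Dnajb7, Dnajb13, Dnajc5g, Dnajc22 and Hspb9 had between 0 and 8 counts a mouse, and Dnajc6, a clathrin-uncoating J protein known from brain, had 3 to 11. Dnajb3, Dnajb7, Dnajb8, Dnajb13, Dnajc5g and Hspb9 are known mainly from testis.

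In the comparison of LLC1 with PBS mice, 5 members rose and 1 fell by edgeR's quasi-likelihood test, called at a Benjamini-Hochberg FDR below 0.05 over 16111 genes. The members that rose were Dnajb12, Hspb6, Hspbp1, Dnajc30 and Dnajc4, and Hspa13 fell. That is 9.09% of the 66 tested members, against 8.73% of all tested genes. Among all tested genes 4.12% were called higher and 4.61% lower, and the share of members is close to this background. The calls over all genes were 663 higher and 743 lower, and with scaling to total counts only they were 225 and 793 (1.40% and 4.92%), with 0 members called higher. The fold changes were small. The tested members had a median log2 fold change of -0.03, against -0.01 over all genes, and 29 were above 0 and 37 below. At an unadjusted p under 0.05, 8 members were higher and 9 lower, against 12.4% and 13.0% of all genes. The 4 LLC1 values all lay above the 4 PBS values for 7 members and all below for 2, where 8.89% and 8.27% of all genes did so.

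**Figure D2:**
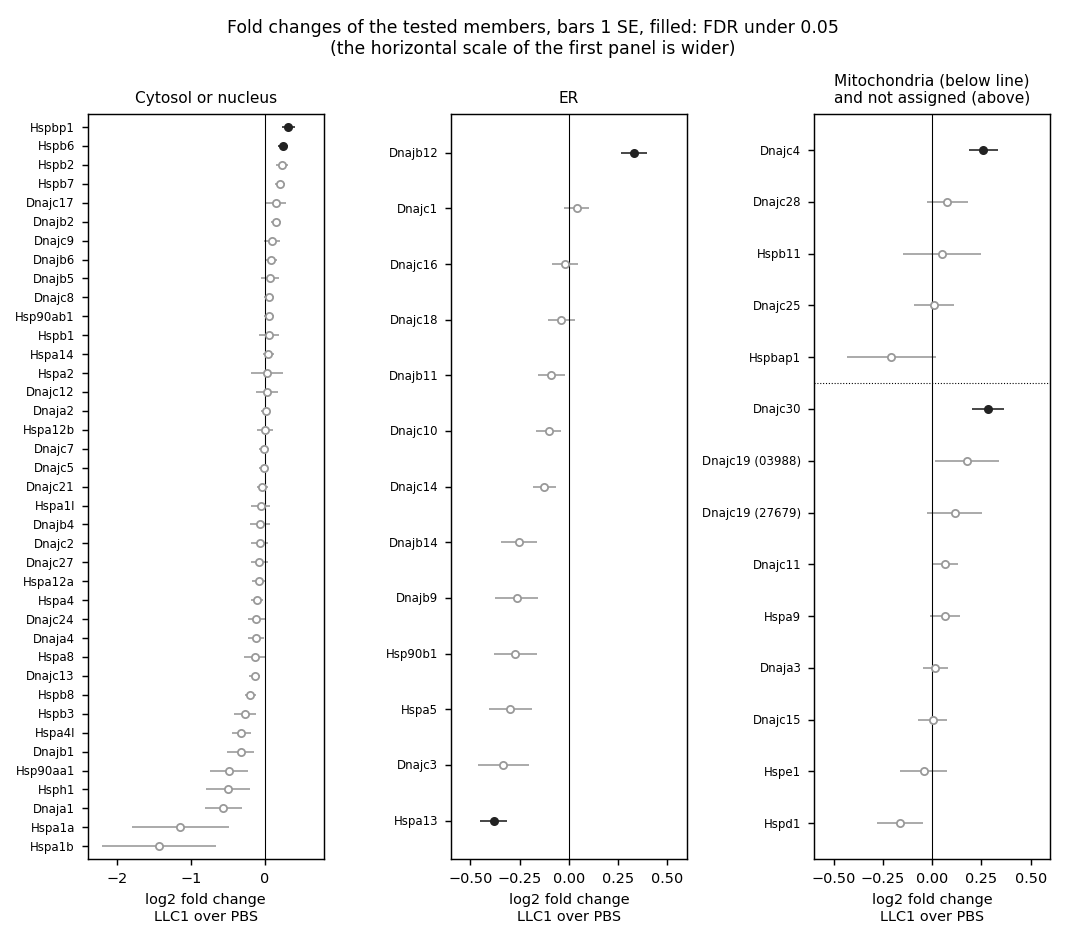
Log2 fold change of LLC1 over PBS mice for the 66 tested members by compartment, with bars of 1 SE from edgeR and filled points for an FDR under 0.05. The horizontal axis of the cytosolic panel is wider because Hspa1a and Hspa1b lie at -1.14 and -1.43 with long bars, while 11 of the 13 ER members lie below 0 and 7 of the 9 mitochondrial rows above it.

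The member that fell and the member with the lowest adjusted p of those that rose both belong to the ER. Hspa13, also called Stch, is a microsome-associated HSP70 that lacks the usual substrate-binding domain (mm10, chromosome 16, 75755190 to 75766821). Its level was 22.1, 21.8, 21.0 and 21.8 CPM in the PBS mice 1-1, 1-3, 2-1 and 2-5, and 16.1, 16.9, 16.5 and 16.9 CPM in the LLC1 mice 1-2, 1-3, 1-5 and 2-2. The groups did not overlap and each was tight, with means of 21.7 CPM ± 0.486 and 16.6 CPM ± 0.354 (SD, n = 4). Hspa13 fell by 0.38 on the log2 scale (SE 0.0698), to 0.767 of the control level, with an adjusted p of 0.00848 in edgeR's quasi-likelihood test. It was called under every alternative analysis and whichever mouse was left out.

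Dnajb12 encodes a J-domain protein anchored in the ER membrane that works with cytosolic HSP70 on misfolded membrane proteins (chromosome 10, 59879556 to 59899302). It stood at 31.1, 33.7, 33.9 and 34.3 CPM in the PBS mice and at 41.5, 41.2, 39.9 and 44.8 CPM in the LLC1 mice, in the order of mice above. All LLC1 values were above all PBS values. Dnajb12 rose by 0.33 on the log2 scale (SE 0.0663, fold 1.26), with an adjusted p of 0.0122 in edgeR. The call held whichever mouse was left out and was lost with scaling to total counts only, where the adjusted p was 0.076. Its close relative Dnajb14, which sits in the same membrane, had a log2 difference of -0.25 (SE 0.0905) with an adjusted p of 0.105 in edgeR, and values of 24.1 to 32.6 CPM in PBS mice and 23.0 to 25.2 CPM in LLC1 mice.

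The chaperones of the ER lumen had lower mean levels in LLC1 mice without passing the test. Hspa5 had 955, 1002, 795 and 763 CPM in the PBS mice and 815, 647, 771 and 626 CPM in the LLC1 mice. Hsp90b1 had 533, 535, 420 and 397 CPM in PBS mice and 432, 343, 413 and 371 CPM in LLC1 mice. In both genes PBS 1-1 and 1-3 were above every LLC1 mouse, while PBS 2-1 and 2-5 lay within the LLC1 range. The log2 differences were -0.30 (SE 0.109) for Hspa5 and -0.27 (SE 0.109) for Hsp90b1, with adjusted p of 0.112 and 0.141 in edgeR. Dnajc3 (P58IPK), a lumenal co-chaperone of Hspa5 that also inhibits the kinase PERK, had 103, 96.8, 77.2 and 65.4 CPM in PBS mice and 78.3, 67.0, 63.8 and 61.9 CPM in LLC1 mice. Dnajb9 (ERdj4), a co-chaperone in the degradation of ER proteins, had 49.0, 47.5, 42.0 and 32.6 CPM in PBS mice and 34.4 to 36.4 CPM in LLC1 mice. Their log2 differences were -0.33 (SE 0.129) and -0.27 (SE 0.109), with adjusted p of 0.131 and 0.149 in edgeR.

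**Figure D3:**
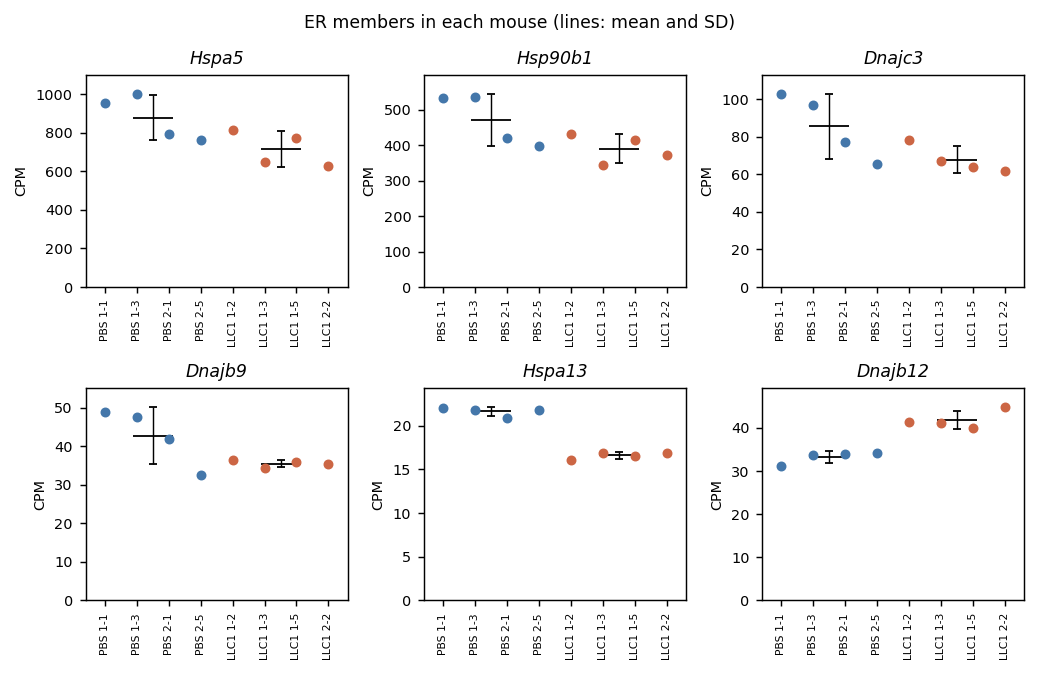
CPM of 6 ER members in each mouse, PBS in blue and LLC1 in red, with each group's mean and SD in black and axes from 0. Hspa13 and Dnajb12 separate the groups without overlap in opposite directions, whereas in Hspa5, Hsp90b1, Dnajc3 and Dnajb9 at least 1 PBS mouse lies within or below the LLC1 range.

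Over the 13 ER members, all of which were tested, the median log2 fold change was -0.13, and 2 values were positive and 11 negative. At an unadjusted p under 0.05, 6 were lower (Hspa13, Dnajb14, Hspa5, Dnajc3, Hsp90b1 and Dnajb9) and 1 was higher, where 13.0% and 12.4% of all genes were. The calls were 1 lower and 1 higher of 13, against 4.61% and 4.12% of all genes. Without PBS 1-1 the ER median was -0.14 and the calls were 1 higher and 1 lower. The number of ER members called lower changed with the covariate and with 1 mouse. With the first number of the mouse code as a covariate it was 5 (Dnajb14, Dnajc3, Hsp90b1, Hspa13 and Hspa5), and without PBS 2-5 it was 4 (Dnajb14, Dnajb9, Dnajc3 and Hspa13). Of all genes 5.18% and 5.10% were called lower under these settings. The ratio of Hspa5 to Hsp90b1 counts, which needs no library scaling, varied little across mice. Its log2 value was 0.87 ± 0.0781 in LLC1 mice and 0.90 ± 0.0436 in PBS mice (exact permutation test, 2-sided, p = 0.543, adjusted over 4 ratios 0.724).

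Hspa5, Hsp90b1 and Dnajc3 also share a sequence feature that the choice of members did not use, and their promoters are shown because they hold it. Other ER members with lower mean levels and a window, such as Dnajb9, Dnajb11 and Dnajc10, did not hold it. Promoter windows came from RefSeq on GRCm38.p6, covering 250 bases before to 50 bases after each start, and 60 of the 74 member symbols had a window. Members without a window, among them Hspa13, Hsp90aa1, Hspa8, Dnajc30 and Hspb2, were not searched for this or any other element. An ER stress element was searched on both strands as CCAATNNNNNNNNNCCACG. It was present in 3 of 11 ER members with a window, in 0 of 39 cytosolic or nuclear members and in 0 of 5 mitochondrial members, against 37 of 27025 genes (0.137%). Counted by window it was in 0.119% of all 32851. The bases before the start sites are given from 5′ to 3′ on the strand of the gene, with the element in capitals. They lie at chr2:34771840-34772089 (plus strand), chr10:86705445-86705694 (minus strand) and chr14:118937682-118937931 (plus strand).
Hspa5: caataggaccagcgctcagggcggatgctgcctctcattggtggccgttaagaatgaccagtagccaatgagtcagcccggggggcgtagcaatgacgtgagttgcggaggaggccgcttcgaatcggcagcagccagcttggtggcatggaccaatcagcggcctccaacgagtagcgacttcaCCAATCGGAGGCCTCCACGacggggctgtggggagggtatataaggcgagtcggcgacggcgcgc
Hsp90b1: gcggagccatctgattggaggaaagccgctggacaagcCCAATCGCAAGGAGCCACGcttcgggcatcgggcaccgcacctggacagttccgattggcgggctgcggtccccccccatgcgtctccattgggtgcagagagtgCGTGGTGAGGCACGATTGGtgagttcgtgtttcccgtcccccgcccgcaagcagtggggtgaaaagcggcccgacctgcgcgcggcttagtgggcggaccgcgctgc
Dnajc3: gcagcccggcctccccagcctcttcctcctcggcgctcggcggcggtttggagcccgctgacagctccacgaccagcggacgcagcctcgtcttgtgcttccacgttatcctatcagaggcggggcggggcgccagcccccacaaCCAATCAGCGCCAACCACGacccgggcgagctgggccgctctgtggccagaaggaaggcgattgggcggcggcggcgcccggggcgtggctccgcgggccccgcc

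The element began 65 bases before the start in Hspa5 and 105 bases before it in Dnajc3. Hsp90b1 held 2 copies on opposite strands, beginning 212 and 107 bases before the start. Among the partner genes it was found in Calr, Canx, Pdia6 and Creld2, in 4 of 46 with a window. Of these partners Calr, Canx, Pdia6 and Creld2 had log2 differences of -0.09, -0.09, -0.14 and -0.14, and 0 of the 4 were called. A match is only a description of the letters in these windows.

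Of the 60 tested partner genes 3 fell, where 4.61% of all tested genes did, and the 3 were Hyou1, Pdia3 and Pdia4. Hyou1 (GRP170), an ER nucleotide exchange factor of Hspa5, had 98.9, 105, 80.7 and 81.6 CPM in PBS mice and 76.4, 60.6, 66.0 and 61.6 CPM in LLC1 mice, without overlap. It fell by 0.47 on the log2 scale (SE 0.102), with an adjusted p of 0.0172 in edgeR. Sil1, from the same list of HSP70 co-chaperones as Hyou1, had 19.5 to 24.5 CPM in PBS mice and 21.1 to 25.2 CPM in LLC1 mice. The log2 difference of Sil1 was 0.10 (SE 0.0949), with an adjusted p of 0.534 in edgeR. Of the 9 genes of ER glycoprotein and disulfide folding 2 fell, the disulfide isomerases Pdia3 by 0.49 (SE 0.0894) and Pdia4 by 0.61 (SE 0.135) on the log2 scale, with adjusted p of 0.00833 and 0.0180 in edgeR. All 9 had a negative log2 fold change, with a median of -0.14 against -0.01 over all genes, and 0 rose. The numbers of partner genes called lower ranged from 1 to 6 when a mouse was left out, with 1 (Pdia3) without LLC1 1-3, LLC1 2-2 or PBS 1-3 and 6 without PBS 2-5. The share of all genes called lower was 2.18%, 2.95% and 2.02% without the first 3 mice named and 5.10% without PBS 2-5.

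The heat-inducible cytosolic members were dominated by PBS 1-1. Hspa1a and Hspa1b, the classical inducible HSP70 genes, share 99.2% of 2201 aligned transcript bases, so that reads cannot be divided between them with certainty, and their summed level is given. The sum was 77.6, 17.1, 4.88 and 6.08 CPM in the PBS mice 1-1, 1-3, 2-1 and 2-5, and 15.9, 8.03, 8.75 and 9.16 CPM in the LLC1 mice 1-2, 1-3, 1-5 and 2-2. The PBS mice spanned a 15.9-fold range that took in every LLC1 mouse, and the difference between the group means had p = 0.714 (exact permutation test, 2-sided). The single rows had the largest fitted fold changes of all members, with log2 values of -1.14 for Hspa1a (SE 0.657, adjusted p 0.301 in edgeR) and -1.43 for Hspa1b (SE 0.767, adjusted p 0.267 in edgeR). Without PBS 1-1 they turned to 0.18 and 0.19. Exon sequence of Hspa1a also overlaps the opposite-strand gene Gm20481, over 19.0% of its bases.

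The same mouse was highest for Hsph1, Dnaja1 and Hsp90aa1, though not for every cytosolic partner of HSP70, as Hspbp1 below shows. Hsph1, the HSP110 exchange factor, had 124, 79.4, 41.0 and 38.5 CPM in PBS mice and 45.7 to 53.0 CPM in LLC1 mice. Dnaja1, a J protein of the cytosolic HSP70, had 139, 92.1, 49.1 and 59.4 CPM in PBS mice and 52.2 to 69.7 CPM in LLC1 mice. Hsp90aa1, the inducible HSP90, had 246, 152, 101 and 87.7 CPM in PBS mice and 96.0 to 118 CPM in LLC1 mice. In each of them PBS 1-1 was highest, PBS 1-3 next and PBS 2-1 and 2-5 within or below the LLC1 range. Their log2 differences were -0.50 (SE 0.297), -0.56 (SE 0.256) and -0.49 (SE 0.251), with adjusted p of 0.313, 0.195 and 0.250 in edgeR. Without PBS 1-1 they were -0.09, -0.22 and -0.12. With the code covariate Dnaja1 was called lower (adjusted p 0.0448 in edgeR).

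Dnajb1 (HSP40), the main inducible J protein of the cytosol, had 28.0, 17.2, 13.7 and 19.6 CPM in PBS mice and 13.3 to 18.2 CPM in LLC1 mice. Hspa4l, a further HSP110-type gene, had 55.9 to 93.1 CPM in PBS mice and 53.0 to 62.5 CPM in LLC1 mice. Both were again highest in PBS 1-1, and their log2 differences of -0.32 (SE 0.183) and -0.32 (SE 0.126) had adjusted p of 0.292 and 0.136 in edgeR. Without PBS 1-1 they were -0.12 and -0.17, and without PBS 2-5 Hspa4l was called lower (adjusted p 0.0296 in edgeR). The log2 ratio of Hsp90aa1 to Hsp90ab1 counts was -3.80 ± 0.121 in LLC1 mice and -3.36 ± 0.558 in PBS mice (exact permutation test, 2-sided, p = 0.171, adjusted 0.457). That of the summed Hspa1a and Hspa1b to Hspa8 was -6.98 ± 0.376 and -6.59 ± 1.47 (exact permutation test, 2-sided, p = 0.800, adjusted 0.800).

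**Figure D4:**
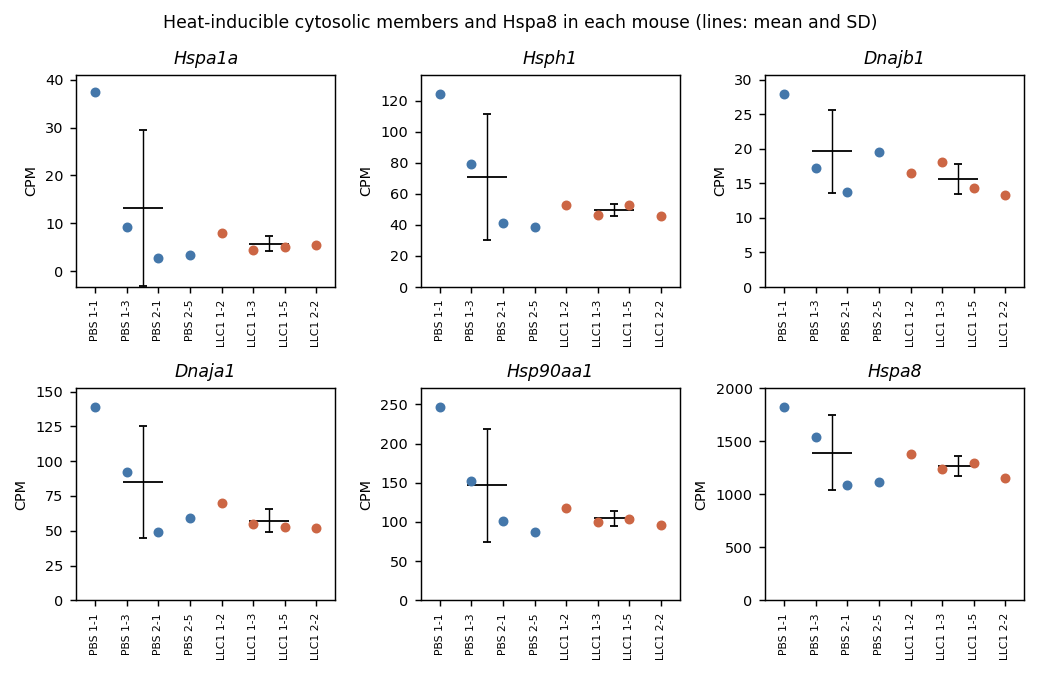
CPM of 5 heat-inducible cytosolic members and of the constitutive Hspa8 in each mouse, PBS in blue and LLC1 in red, with each group's mean and SD in black. PBS 1-1 is the highest mouse in every panel, for example 246 CPM against 96.0 to 118 CPM in LLC1 mice for Hsp90aa1, and the lower SD bar of Hspa1a passes below 0 because its SD exceeds its mean.

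The constitutive cytosolic chaperones showed no called difference. Hspa8 had 1824, 1544, 1089 and 1120.2 CPM in PBS mice and 1157 to 1383 CPM in LLC1 mice, with a log2 difference of -0.14 (SE 0.145) and an adjusted p of 0.596 in edgeR. Without PBS 1-1 the difference was 0.02. Several processed pseudogenes match its transcript, 1 of them (Gm15459) at 99.7% identity over 1941 bases with 1876.5 counts on average, so that its level is uncertain. Hsp90ab1 had 1260.4 to 1524 CPM in PBS mice and 1408 to 1481 CPM in LLC1 mice, with a log2 difference of 0.06 (SE 0.0733) and an adjusted p of 0.670 in edgeR. Dnaja2 had a log2 difference of 0.01 (SE 0.0605).

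Among small heat shock proteins Hspb6, Hspb7 and Hspb2 were higher in every LLC1 mouse than in any PBS mouse, as were 8.89% of all tested genes. Hspb6 (HSP20), a phosphorylated regulator of cardiac contraction (chromosome 7, 30552178 to 30555443), had 759, 817, 794 and 778 CPM in the PBS mice and 921, 980.5, 859 and 977 CPM in the LLC1 mice. The groups did not overlap. Hspb6 rose by 0.25 on the log2 scale (SE 0.0645, fold 1.19), with an adjusted p of 0.0350 in edgeR. The call held when PBS 1-1 or LLC1 1-5 was left out (adjusted p 0.0351 and 0.0409 in edgeR) and was lost when any of the other 6 mice was, with adjusted p of 0.0542 to 0.116. It was also lost with total counts only (adjusted p 0.174). Hspb7 had 2182, 2469, 2552 and 2456 CPM in PBS mice and 2837, 2745, 2689.7 and 2884 CPM in LLC1 mice, and Hspb2 had 57.4, 54.5, 48.5 and 58.3 CPM and 67.3, 62.7, 68.4 and 58.7 CPM. In both the groups did not overlap, but the test was not passed. Hspb7 was called in 3 of 11 alternative analyses, with adjusted p of 0.0172 in DESeq2, 0.0475 in limma-voom and 0.0443 in edgeR with the code covariate. Their log2 differences were 0.21 (SE 0.067) and 0.23 (SE 0.077), with adjusted p of 0.0753 and 0.0805 in edgeR.

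Hspb2 and Cryab are neighbours on opposite strands, and 30.2% of the exon bases of Hspb2 lie in exons of Cryab, which had 24423 counts on average. Without the strand setting of the counting, reads of the overlap cannot be assigned. Hspb8, which works with the co-chaperone Bag3 in clearing damaged contractile proteins, had 452 to 578 CPM in PBS mice and 450.0 to 487 CPM in LLC1 mice, with a log2 difference of -0.20 (SE 0.0774) and an adjusted p of 0.136 in edgeR. Without PBS 2-5 it was called lower (log2 -0.27, adjusted p 0.0240 in edgeR). Hspb1 (HSP25) had 212, 170.4, 127 and 129 CPM in PBS mice and 153 to 179 CPM in LLC1 mice, and the groups overlapped. Its log2 difference was 0.05 (SE 0.140), and 0.22 without PBS 1-1. Of the 6 tested small heat shock proteins 1 rose and 0 fell, against 4.12% and 4.61% of all genes. Their median log2 fold change was 0.13, against -0.01 over all genes. The higher values of Hspb6, Hspb7 and Hspb2 stand beside summed cardiomyocyte markers, mostly Myh6, that were also higher in every LLC1 mouse. The part of these markers was not tested.

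The other cytosolic member that rose was Hspbp1, which promotes nucleotide release from HSP70 (chromosome 7, 4660521 to 4684963). It had 28.8, 31.1, 24.8 and 31.0 CPM in PBS mice and 34.3, 35.9, 40.2 and 34.0 CPM in LLC1 mice, without overlap. It rose by 0.32 on the log2 scale (SE 0.0891, fold 1.25), with an adjusted p of 0.0468 in edgeR. The call held without PBS 1-1 or PBS 2-5 and was lost without any of the other 6 mice, with adjusted p of 0.0699 to 0.134 in edgeR. It was also lost with the code covariate (adjusted p 0.0575), length offsets (0.0801) and total counts (0.116). In all, 2 of the 39 tested cytosolic or nuclear members rose and 0 fell, against 4.12% and 4.61% of all genes. At an unadjusted p under 0.05 in edgeR 5 were higher and 3 lower, where 12.4% and 13.0% of all genes were. The number called lower was 1 with the code covariate (Dnaja1) and 2 without PBS 2-5 (Hspa4l and Hspb8), against 5.18% and 5.10% of all genes. Their median log2 fold change was -0.03, and without PBS 1-1 it was 0.02.

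In mitochondria the J-domain protein Dnajc30 rose, and the main chaperones did not pass the test. Hspa9 had 654 to 806 CPM in PBS mice and 721 to 817 CPM in LLC1 mice, with a log2 difference of 0.07 (SE 0.0745) and an adjusted p of 0.623 in edgeR. Hspd1 (HSP60) had 494, 400.4, 351 and 314 CPM in PBS mice and 322 to 372 CPM in LLC1 mice. Hspe1 (HSP10), its lid, had 71.9 to 105 CPM in PBS mice and 69.8 to 92.5 CPM in LLC1 mice. In both genes PBS 1-1 was highest and the groups overlapped, with log2 differences of -0.16 (SE 0.117) and -0.04 (SE 0.119) and adjusted p of 0.410 and 0.854 in edgeR. Without PBS 1-1 they were -0.03 and 0.07. The log2 ratio of Hspe1 to Hspd1 was -2.07 ± 0.111 in LLC1 mice and -2.18 ± 0.112 in PBS mice (exact permutation test, 2-sided, p = 0.229, adjusted 0.457).

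Hspd1 and Hspe1 are transcribed away from each other, and the 215 bases between their RefSeq starts are printed because a heat shock element lies in that shared stretch. The element was searched as GAANNTTCNNGAA and TTCNNGAANNTTC, each the reverse complement of the other, so that both strands are covered, and matches that overlap are shown as 1 run. It was found in 4 of the 60 members with a window, against 0.662% of all genes (0.603% of all windows), namely Hspd1, Hspe1, Dnajb6 and Hsph1. The stretch is chr1:55087933-55088147 on the minus strand, the strand of Hspd1, with the element in capitals.
Hspd1: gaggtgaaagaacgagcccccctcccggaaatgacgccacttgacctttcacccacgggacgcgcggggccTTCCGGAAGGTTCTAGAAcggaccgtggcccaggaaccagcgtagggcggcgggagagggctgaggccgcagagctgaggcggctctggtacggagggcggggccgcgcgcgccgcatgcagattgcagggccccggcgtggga

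The element began 144 bases before the start of Hspd1 and, read on the other strand, 89 bases before that of Hspe1. It runs over 18 bases in both. In Hsph1 it lay after the start, beginning 15 or 36 bases after it depending on which of 2 starts is taken, and among the partner genes only Chordc1, an Hsp90 co-chaperone, held it.

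Dnajc30, a mitochondrial J-domain protein that associates with ATP synthase (chromosome 5, 135064202 to 135065862), had 23.7, 21.2, 23.0 and 20.3 CPM in PBS mice and 26.4, 24.6, 28.0 and 28.0 CPM in LLC1 mice. The groups did not overlap. It rose by 0.28 on the log2 scale (SE 0.0794, fold 1.22), with an adjusted p of 0.0470 in edgeR, and the call held without PBS 1-1 and was lost without any of the other 7 mice, with adjusted p of 0.0643 to 0.133. It was also lost with length offsets (adjusted p 0.0715) and total counts (0.110). Exons of Bud23 on the opposite strand overlap 26.3% of its exon bases, and the strand of the reads is not known. Dnajc19, a J protein of the inner membrane, had 2 overlapping rows on chromosome 3. The longer row had 57.3, 35.9, 36.8 and 33.8 CPM in PBS mice and 42.0 to 46.8 CPM in LLC1 mice. The shorter row had 40.5, 21.5, 24.3 and 23.6 CPM in PBS mice and 28.9 to 33.1 CPM in LLC1 mice. Every LLC1 mouse was above 3 PBS mice and below PBS 1-1 in both rows. With all mice the log2 differences were 0.11 (SE 0.140) and 0.18 (SE 0.163) and were not called, and without PBS 1-1 they were 0.31 and 0.41 with adjusted p of 0.0110 and 0.00537 in edgeR. A processed pseudogene (Dnajc19-ps) matches the transcript at 99.1% over 351 bases.

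The 9 mitochondrial rows had a median log2 fold change of 0.07, and 7 were positive and 2 negative. The number called higher was 1, against 4.12% of all genes, and without PBS 1-1 it was 3, against 5.56%. These 3 rows were Dnajc30 and the 2 overlapping rows of Dnajc19, which are a single gene. Both Dnajc19 rows are also among the 7 positive values. Dnajc4, a J-domain protein with a membrane anchor that was left without a compartment (chromosome 19, 6987911 to 6992503), had 28.6, 29.6, 27.6 and 28.3 CPM in PBS mice and 35.5, 36.1, 34.5 and 30.5 CPM in LLC1 mice, without overlap. It rose by 0.26 on the log2 scale (SE 0.0728, fold 1.20), with an adjusted p of 0.0475 in edgeR. The call held without PBS 1-1 or LLC1 2-2 and was lost without any of the other 6 mice, with adjusted p of 0.0675 to 0.138 in edgeR. It was also lost in 6 of 11 alternative analyses, with adjusted p of 0.0502 to 0.162 under limma-voom, both other count filters, the code covariate, total counts and length offsets.

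Without PBS 1-1, 9 rows were called higher and 1 lower in edgeR, against 5.56% and 6.38% of 16319 genes. Those added were Dnajb2, Dnajb5 and both Dnajc19 rows. Dnajb2, a neuronal and muscle J protein that sorts clients to the proteasome, had 113, 103, 97.9 and 97.3 CPM in PBS mice and 111 to 117 CPM in LLC1 mice. Dnajb5 had 143, 104, 90.3 and 94.9 CPM in PBS mice and 107 to 118 CPM in LLC1 mice. In both PBS 1-1 lay inside or above the LLC1 range and the other PBS mice below it. Of the 66 members 11 had the other sign without PBS 1-1, 9 of them turning from negative to positive.

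**Figure D5:**
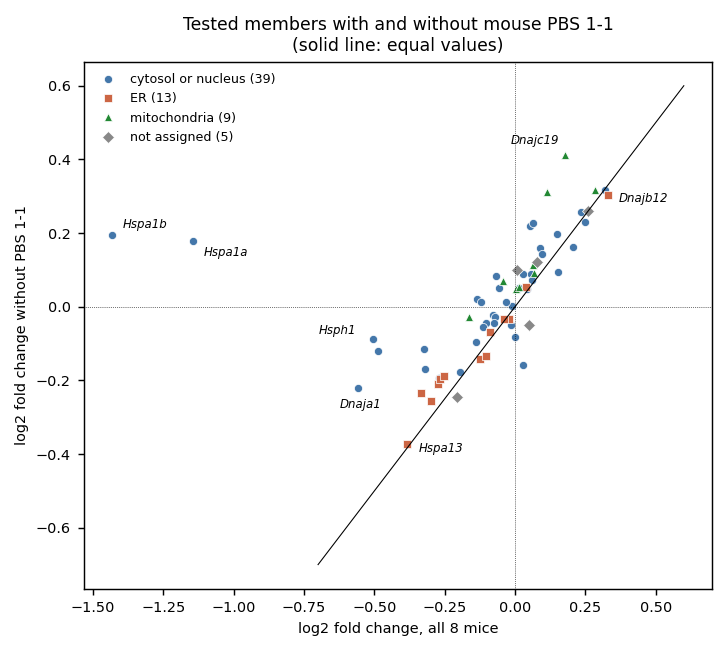
Log2 fold change of each tested member with all 8 mice (horizontal) and without PBS 1-1 (vertical), coloured by compartment, with a solid line at equal values. Hspa1a and Hspa1b move from -1.14 and -1.43 to 0.18 and 0.19, while Hspa13 and Dnajb12 stay near the line.

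The partner genes outside the name rule were 61 factors, co-chaperones, chaperonin subunits and proteases, of which 60 were tested. In edgeR 7 rose and 3 fell, against 4.12% and 4.61% of all genes. Of the 14 HSP70 co-chaperones Bag6 rose by 0.30 (SE 0.0736) and Sgta by 0.28 (SE 0.0785) on the log2 scale, with adjusted p of 0.0276 and 0.0448 in edgeR. Both act on membrane proteins that have not yet reached the ER. Of the 12 HSP90 co-chaperones 1 rose, the phosphatase Ppp5c, by 0.36 on the log2 scale (SE 0.0703, adjusted p 0.0117 in edgeR). Trap1, the HSP90 of mitochondria, rose by 0.19 (SE 0.0548, adjusted p 0.0498 in edgeR). Of the 7 mitochondrial proteases and disaggregases Clpp, Clpx and Lonp1, which degrade matrix proteins, rose by 0.35, 0.26 and 0.22, and 0 fell.

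Clpp had 42.6, 45.6, 45.8 and 51.6 CPM in PBS mice and 63.0, 58.7, 57.9 and 57.5 CPM in LLC1 mice, without overlap. Of the 8 subunits of the cytosolic chaperonin 0 were called, with log2 fold changes from -0.16 to 0.05. Of the heat shock factors Hsf1, Hsf2 and Hsf4 and the factor binding protein Hsbp1, 0 of 4 were called. Hsf1 had a log2 difference of 0.10 (SE 0.0656, adjusted p 0.359 in edgeR), and Hsf4 had 2.95 to 3.69 CPM in PBS mice and 3.88 to 5.36 CPM in LLC1 mice, without overlap, with a log2 difference of 0.46 (SE 0.150, adjusted p 0.0777 in edgeR). Hsbp1 had 83.64 to 88.16 CPM in PBS mice and 88.20 to 110.0 CPM in LLC1 mice, without overlap, with a log2 difference of 0.18 (SE 0.0715, adjusted p 0.131 in edgeR). The number of partner genes called higher was 0 without PBS 1-3 and between 2 and 9 when another mouse was left out, where the share of all genes called higher was 1.30% and 1.70% to 5.56%.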

How the data were processed

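RNA sequencing libraries of ventricular tissue from 8 mice were made with a TruSeq kit and read on an Illumina HiSeq instrument, as given in the labels and the methods of the study. The authors deposited raw read counts per gene, made on the mm10 genome. The submitters' processing notes name CASAVA, STAR and featureCounts without versions, and the annotation release and the strand setting are not given in the sources used here. The kit and counting could leave reads of overlapping genes unassigned or shared. Coordinates and gene lengths are those of the deposited file.

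Counts were compared in R 4.3.3 with edgeR 4.0.16 (filterByExpr, TMM factors, estimateDisp, glmQLFit and glmQLFTest) over the whole table, with Benjamini-Hochberg adjustment over 16111 genes and an FDR threshold of 0.05. The SE is the absolute log2 fold change divided by the square root of F. Ratios were compared by exact permutation tests over 70 arrangements of the mice, with a smallest possible p of 0.0286. Groups came from the stated treatment, and nothing beyond the mouse numbers says how the animals were housed or processed. Alternatives were DESeq2 1.42.0, limma-voom (limma 3.58.1), the likelihood ratio test, robust empirical Bayes, other scalings and filters, length offsets, the first number of the mouse code as a covariate, and leaving out each mouse.

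Exon overlap and matching transcripts (BLAST 2.17.0, at least 97% identity over 150 bases) were taken from GENCODE M21, where 74 of the 75 rows were found and 50 had the same start and end. Promoters were read from RefSeq. Protein features that had been planned were not analysed here. The named genes were the called members, the 15 with the highest RPKM in PBS mice, the 5 with the largest fold change that missed the threshold, the untested ones and others with their values, and up to 4 called genes from each partner list. The members and lists were chosen with earlier results of these data known.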

Additional observations from a re-analysis of the deposited data

Results flagged for a closer look

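In 6 of 140 groups of 4 values (4.29%), a mouse lay far from the other 3 of its group by Dixon's gap divided by the range, above its 95% critical value. Chance flags about 1 in 20 groups. In LLC1 mice, Hspb8 was high in LLC1 1-2 (gap over range 0.900), with 487 CPM against 450.0 to 454 CPM. Hspa4, an HSP110-type exchange factor, was high in LLC1 1-5 (0.958), with 177 CPM against 159 to 160.1 CPM. Dnajc9, a nuclear J protein, was low in LLC1 1-5 (0.945), with 10.2 CPM against 12.2 to 12.3 CPM. Hspa1b was high in LLC1 1-2 (0.961), with 7.94 CPM against 3.61 to 3.72 CPM. The log2 ratio of Hspa5 to Hsp90b1 was low in LLC1 2-2 (0.888), at 0.755 against 0.899 to 0.917. In PBS mice, the longer Dnajc19 row was high in PBS 1-1 (0.838), with 57.3 CPM against 33.8 to 36.8 CPM. Gaps were computed on log2 values of CPM.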

How the results depend on the processing

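Scaling to total counts only shifted the median log2 fold change of all genes from -0.01 to -0.06 and the share of higher calls from 47.2% to 22.1%. Under it 0 members were called higher (5 in the main test), 0 of the cytosolic, 0 of the ER and 0 of the mitochondrial ones, and 0 partner genes (7). Length offsets left 2 members called higher, 1 cytosolic and 0 mitochondrial. With the first number of the mouse code as a covariate 6 members were called lower (1), of which 1 was cytosolic and 5 were in the ER. Partner genes called lower numbered 5 (3) with DESeq2, the likelihood ratio test, total counts, all genes with at least 1 count, and the covariate.

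Leaving out each mouse in turn gave 1 to 9 members called higher and 1 to 6 lower. Cytosolic ones ranged from 0 to 4 higher and 0 to 2 lower, ER ones from 1 to 4 lower, mitochondrial ones from 0 to 3 higher, and partner genes from 0 to 9 higher and 1 to 6 lower. For members the largest numbers higher came without PBS 1-1, and the largest numbers lower, and both for partner genes, without PBS 2-5. Medians of the compartments ranged from -0.08 to 0.02 (cytosolic), -0.14 to -0.11 (ER) and 0.0089 to 0.09 (mitochondrial). Hspa1a and Hspa1b reversed to 0.18 and 0.19 without PBS 1-1, and their ranges over the left-out mice were -1.50 to 0.18 and -1.81 to 0.19. The difference in the log2 ratio of Hspa1a plus Hspa1b to Hspa8 reversed to 0.30 without PBS 1-1 (range -0.78 to 0.30), and that of Hspa5 to Hsp90b1 to 0.0076 without LLC1 2-2 (range -0.052 to 0.0076). The cause of these shifts was not tested. No paired analysis was possible because the groups share only 1 replicate code (1-3), carried by different animals. The lumenal ER members had larger SEs (0.109 to 0.129 for Hspa5, Hsp90b1, Dnajb9 and Dnajc3) than called members of like fold change (0.0663 for Dnajb12). Hspa1a, with an SE of 0.657, had counts from 47 in PBS 2-1 to 435 in PBS 1-1.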
